A study of Canis lupus familiaris with 4 samples.

Results

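The CPV biopsy was set against 2 pyoderma biopsies, 3 of the 4 canine skin biopsies of the series as given, and the EM biopsy was left out. The labels class both diagnoses as controls. CPV is spelled out by the study as cell poor vasculitis, and neither the labels nor the methods name a virus, so the comparison is between a vasculitis labelled CPV and pyoderma. The CPV biopsy came from a spayed female Pomeranian aged 4 years. Pyoderma case 1 was a neutered male Golden Retriever aged 7 years and pyoderma case 2 a neutered male German Shepherd aged 9 years. Diagnosis, sex, breed and age therefore cannot be told apart in this comparison. RNA from archival skin blocks, fixed in formalin and embedded in paraffin, was measured on a custom NanoString panel, in which each bound probe carries a barcode that is counted without amplification. No treatment is given, and healthy skin was not analysed here.

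Pyoderma is a bacterial infection of the skin in which neutrophils gather in and around the epidermis and hair follicles. Cell poor vasculitis is an injury of small dermal vessels with few inflammatory cells in the section. Skin RNA mixes keratinocytes of the epidermis, collagen-producing fibroblasts of the dermis, resident mast cells and whatever leukocytes have entered. In such bulk tissue, fewer cells of a type and less RNA per cell cannot be told apart.

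The panel held 160 targets. Counts over all targets summed to 808877 in CPV, 598672 in pyoderma case 1 and 517282 in pyoderma case 2. In all 3 biopsies 134 targets lay above background, set 2 SD over the mean of the probes that have no canine target, and 9 did so in none. Targets are listed by RefSeq transcript, and 72 were paired with a gene symbol. The other 88 are given by transcript. Normalized counts are counts divided by a factor from 3 housekeeping genes, *HPRT1*, *B2M* and *RPL13A*. Poisson limits are at 95% and, like the intervals of ratios, cover counting error only. With 1 CPV biopsy there is no replicate check on that side, and an exact permutation test of 1 against 2 cannot go below p = 0.333, so order and size are described and no group test is given.

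CPV lay outside both pyoderma values for 118 of the 160 targets and between them for 42. It was higher than both for 48 targets (30.0%) and lower than both for 70 (43.8%). Poisson limits were also apart from both pyoderma biopsies for 27 of the higher targets (16.9% of the panel) and 30 of the lower ones (18.8%). A target was called when CPV lay at least 2-fold outside both, on log2(normalized count + 1), and its highest count was at least 50, a filter that a target may pass through the biopsy where it is high. Of 122 targets with such a count, 9 were called higher in CPV (7.38%) and 11 lower (9.02%). All 20 lay on the same side under each of 9 scalings. This followed from the rule, since these scalings moved CPV against either pyoderma biopsy by less than 2-fold. Limits were apart under each scaling for 9 of the higher and 8 of the lower ones.

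The pyoderma biopsies themselves differed by at least 2-fold at 47 of the 122 targets (38.5%). The median distance between them was 1.73-fold. CPV lay at a median distance of 1.66-fold from pyoderma case 1 and 1.80-fold from pyoderma case 2, so over the panel it was about as far from each pyoderma dog as these were from each other. CPV was farther from the nearer pyoderma biopsy than the pyoderma biopsies were from each other at 16 targets where it was higher (13.1%) and 23 where it was lower (18.9%).

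**Figure D1:**
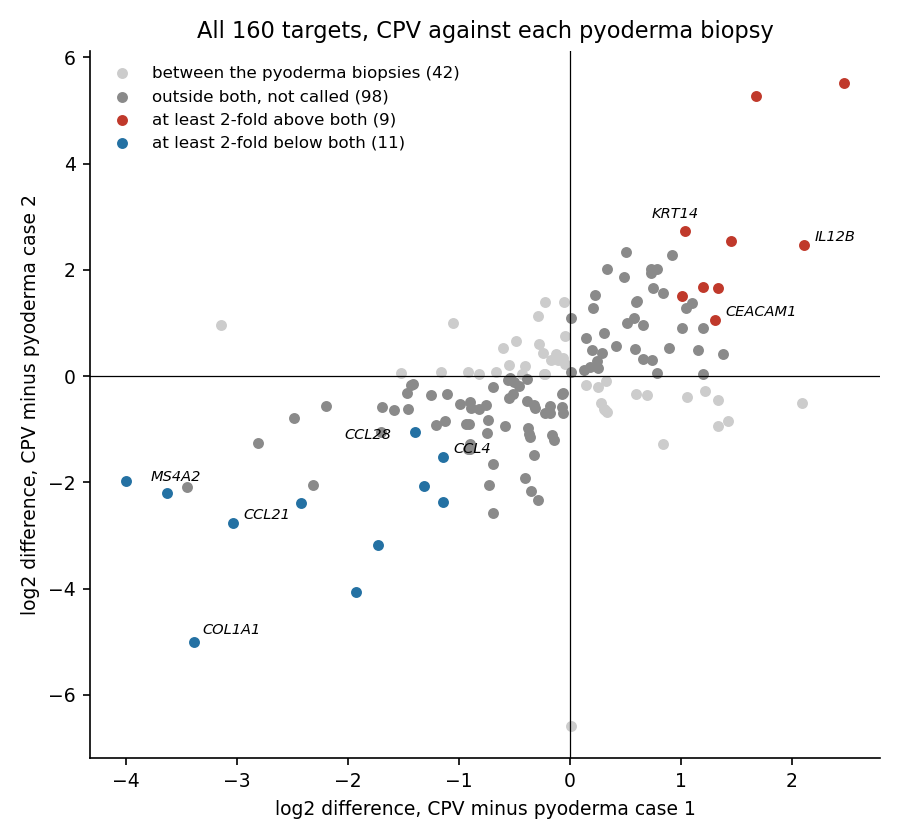
Each point is 1 of 160 targets, with the log2 difference of normalized counts between CPV and pyoderma case 1 on the x axis and between CPV and pyoderma case 2 on the y axis. The 9 targets called higher in CPV lie at the upper right and the 11 called lower at the lower left, and points at the upper left and lower right are targets for which CPV lay between the pyoderma biopsies.

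Genes with a symbol among the calls were *KRT14*, *CEACAM1* and *IL12B*, higher in CPV, and *COL1A1*, *MS4A2*, *CCL21*, *CCL4* and *CCL28*, lower in CPV. They stand for basal keratinocytes, adhesion, an interleukin subunit, dermal collagen, mast cells and 3 chemokines.

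**Figure D2:**
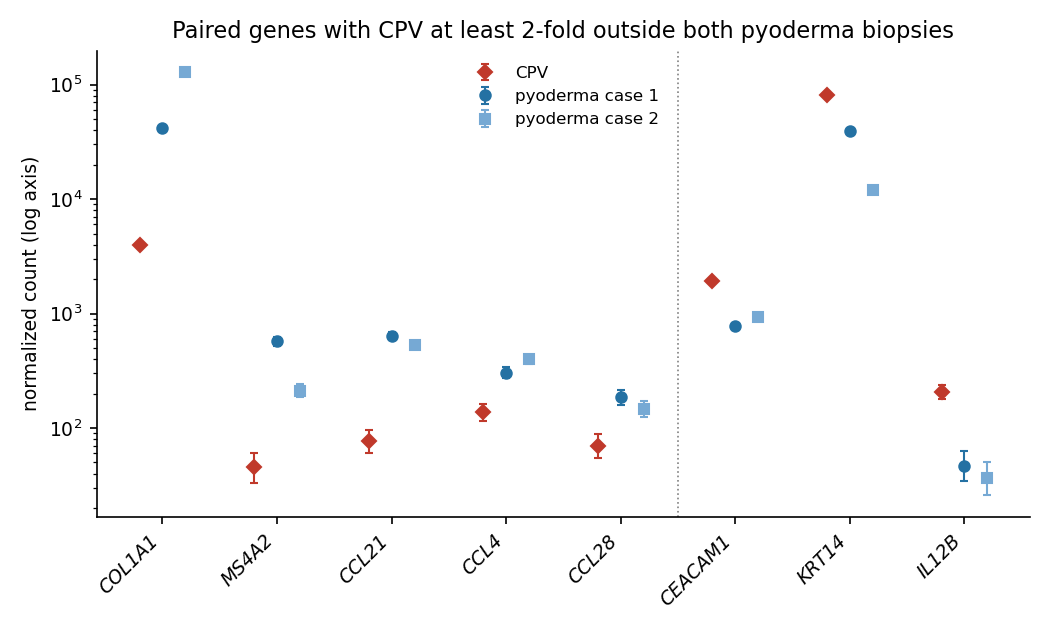
Normalized counts, on a log axis, of the 8 genes with a symbol for which CPV lay at least 2-fold outside both pyoderma biopsies. Each point is 1 biopsy and bars are 95% Poisson limits. *COL1A1* spans 3995 in CPV to 128408 in pyoderma case 2, and *IL12B* stands at 205.5 in CPV against 46.7 and 36.4 in the pyoderma biopsies.

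Keratin genes were higher and collagen was lower in CPV. *KRT14*, a keratin of the basal epidermis, had 80436 normalized counts in CPV, 39173 in pyoderma case 1 and 12076 in pyoderma case 2. It was 2.05-fold (95% interval 2.03 to 2.08) above case 1 and 6.66-fold (6.54 to 6.79) above case 2. *KRT5*, its partner in basal cells, had 93245 normalized counts in CPV, 73955 in case 1 and 23210 in case 2. *KRT1*, a keratin of the layers above, had 85510, 73875 and 35238 in the same order. For all 3 keratins CPV was highest and pyoderma case 2 lowest, and the gap between the pyoderma biopsies was wider than that between CPV and case 1 for each of them. CPV stayed above both under all 9 scalings for *KRT14*, under 8 for *KRT5* and under 7 for *KRT1*. *KLK7*, a protease of the outer epidermis, did not share this order: it had 3015 normalized counts in CPV, 8632 in case 1 and 2914 in case 2. These were the 4 paired genes of a list of 17 epidermal genes, with a median log2 difference of 0.96 against −0.17 for all targets.

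*COL1A1*, a chain of type I collagen made by dermal fibroblasts, had 3995 normalized counts in CPV, 41667 in pyoderma case 1 and 128408 in case 2. It was 10.4-fold (10.1 to 10.8) higher in case 1 than in CPV and 32.1-fold (31.1 to 33.2) higher in case 2. Within a biopsy, the log2 ratio of *COL1A1* to *KRT14* was −4.33 in CPV, 0.09 in case 1 and 3.41 in case 2, a measure that no scaling enters. *COL1A1* was the single dermal gene paired of 14 listed, so the dermal side rests on 1 gene. The part of the ratio of collagen to keratin in the results that follow was not tested. To set the other targets against the keratin genes, counts were also divided by the geometric mean of *KRT1*, *KRT5* and *KRT14*. Of the 9 targets called higher, 5 then stayed above both pyoderma biopsies, *KRT14*, *IL12B*, XM_537722.6, XM_005637400.1 and XM_003639053.4. *KRT14* is itself part of the divisor, so for it this scaling is only a comparison with *KRT1* and *KRT5*. All 11 called lower stayed below both, which was fixed, as this divisor lowers CPV against both pyoderma biopsies.

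*IL12B*, the p40 subunit shared by IL-12 and IL-23, was the named gene with the largest positive difference. It was counted 200 times in CPV, 46 times in pyoderma case 1 and 38 times in case 2, all above background. Normalized counts were 205.5 (178.0 to 236.1), 46.7 and 36.4. CPV was 4.40-fold (3.18 to 6.20) above case 1 and 5.65-fold (3.98 to 8.21) above case 2, while the pyoderma biopsies differed by 1.28-fold. The log2 difference from their mean was 2.29 and ran from 1.70 to 2.75 over the 9 scalings. After division by the keratin genes it was 1.03. The log2 ratio of *IL12B* to *KRT14* within a biopsy was −8.61 in CPV, −9.71 in case 1 and −8.37 in case 2. By this ratio CPV lay between the pyoderma biopsies.

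Other genes of type 1 and cytotoxic responses had no common direction. *IFNG*, the cytokine that IL-12 induces in T and NK cells, had 71.9 normalized counts in CPV, 65.0 in pyoderma case 1 and 81.4 in case 2. CPV lay between the pyoderma biopsies. *CXCL10*, a chemokine induced by interferon-γ, was lower in CPV, with 1820 normalized counts against 3210 in case 1 and 2812 in case 2, and it lay below both under all 9 scalings. *CCL5*, a chemokine of cytotoxic lymphocytes among others, had 1199, 1255 and 1801, and CPV was lowest under 5 of the 9 scalings. *KLRD1*, an NK cell receptor gene, had 90.4 normalized counts in CPV, 51.8 in case 1 and 87.2 in case 2. CPV was 1.04-fold (0.765 to 1.41) above case 2 and highest under 6 of the 9 scalings. Of these 5 paired genes from a list of 31, CPV was above both for 2, between for 1 and below both for 2, with a median log2 difference of −0.02.

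Several neutrophil and IL-17 genes were lower in CPV than in pyoderma. Of 7 paired genes from a list of 32, CPV was below both pyoderma biopsies for 5, between for 1 and above both for 1, beside 43.8% of all targets below both. The median log2 difference was −0.80 against −0.17 for the panel, and 1 of the 5, *IL17A*, was within background in CPV and pyoderma case 1. *CXCL8*, the main neutrophil chemoattractant of the CXC family, had 764.5 normalized counts in CPV (710.6 to 821.5), 1265 in pyoderma case 1 and 3149 in case 2. Both pyoderma biopsies were above CPV, by 1.65-fold (1.51 to 1.81) and 4.12-fold (3.80 to 4.47), with limits apart under all 9 scalings. *IL1B*, a cytokine released by activated myeloid cells, had 66.8 normalized counts in CPV, 155.4 in case 1 and 127.4 in case 2. *TNF* had 108.9 in CPV, 159.5 in case 1 and 144.6 in case 2, below both under 8 scalings.

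The other members of that list were less uniform. *IL17A*, the lead cytokine of Th17 cells, was counted 7, 12 and 50 times, and the counts of CPV and pyoderma case 1 were within background, so no order between these biopsies can be read. *CCL20*, which attracts cells bearing CCR6, had 131.5 normalized counts in CPV, 356.6 in case 1 and 148.5 in case 2, below both but close to case 2. *IL6*, an acute phase cytokine, had 116.1 in CPV, 26.4 in case 1 and 164.8 in case 2, and CPV lay between. *CEACAM1*, an adhesion molecule found on neutrophils and on epithelial cells, was called higher in CPV. It had 1931 normalized counts there, 776.2 in case 1 and 932.0 in case 2, or 2.49-fold (2.29 to 2.71) and 2.07-fold (1.92 to 2.24). After division by the keratin genes its log2 difference of 1.18 became −0.085. It was the single neutrophil marker of 7 that was paired, and it ran opposite to *CXCL8*.

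**Figure D3:**
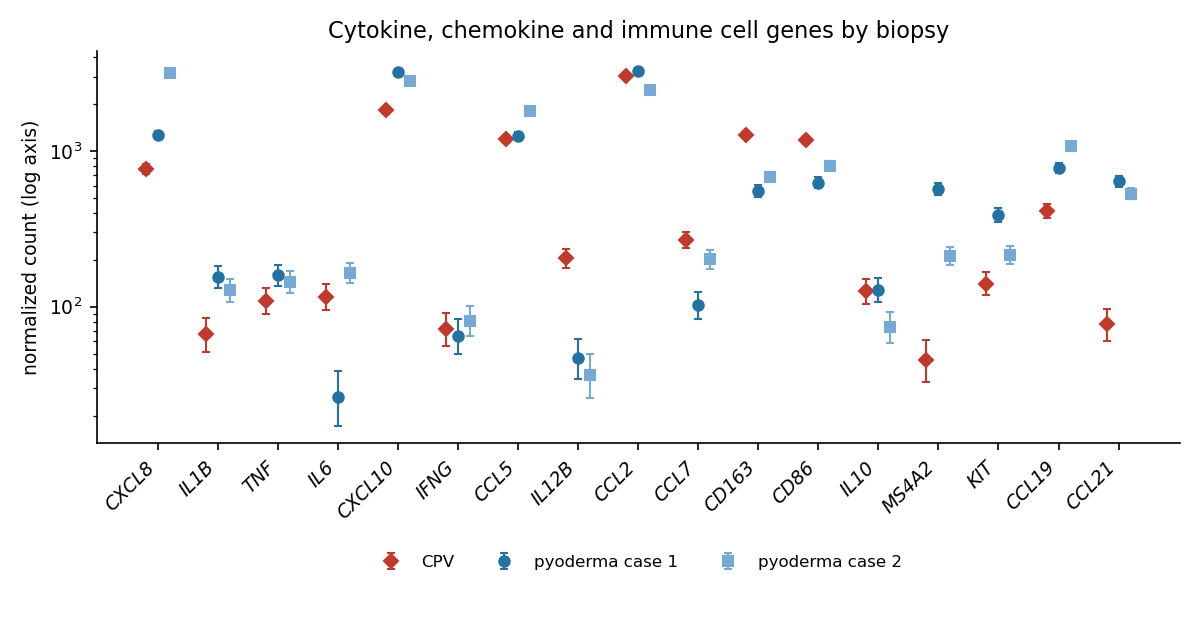
Normalized counts, on a log axis, of 17 cytokine, chemokine and immune cell genes in the CPV biopsy and pyoderma cases 1 and 2, with 95% Poisson limits. Limits of CPV lie below those of both pyoderma biopsies for *CXCL8*, *IL1B*, *CXCL10*, *MS4A2*, *KIT*, *CCL19* and *CCL21*. They lie above both for *IL12B*, *CCL7*, *CD163* and *CD86*, and overlap both for *IFNG*.

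Mast cell genes were lower in CPV. *MS4A2*, the β chain of the high-affinity IgE receptor of mast cells, had 45.2 normalized counts in CPV (32.9 to 60.7), 569.9 in pyoderma case 1 and 211.7 in case 2. The pyoderma biopsies exceeded CPV by 12.6-fold (9.27 to 17.5) and 4.68-fold (3.38 to 6.63), and each of these folds was wider than the 2.69-fold between them. *KIT*, the stem cell factor receptor of mast cells and melanocytes, had 140.8 normalized counts in CPV, 388.1 in case 1 and 215.5 in case 2. The summed level of these 2 mast cell markers, of 4 listed, was 186.0, 958.0 and 427.2. Of 3 paired genes of melanocytes, which also carry *KIT*, none reached a count of 50. CPV was above both pyoderma biopsies for *DCT*, an enzyme of melanin synthesis, at 50.4 normalized counts against 31.5 and 40.2. It was also above both for *MC1R*, the melanocortin receptor, at 28.8 against 23.4 and 21.1. For *DCT* and *MC1R* the limits of CPV overlapped those of both pyoderma biopsies. *TYR*, tyrosinase, lay between, at 44.2 against 45.7 and 16.3.

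Among the other type 2 and eosinophil genes, *CCL24*, an eosinophil attractant, was counted 3 times in CPV, 43 times in pyoderma case 1 and 17 times in case 2. The CPV count was within background, and case 1 exceeded CPV by 14.2-fold with an interval of 4.54 to 71.4. *CCL1*, a ligand of CCR8, was counted 4, 24 and 21 times, within background in CPV. *IL13* had 26.7 normalized counts in CPV, 65.0 in case 1 and 34.5 in case 2. *IL4* was within background in all 3 biopsies, and *CCL17* and *CCL26* had fewer than 40 normalized counts in each. Limits of CPV overlapped those of case 2 for *IL13* and those of both pyoderma biopsies for *CCL17*, for which CPV was lowest under 5 scalings. Of 8 paired genes from a list of 30, CPV was below both pyoderma biopsies for 6, between for 2 and above both for 0, beside 43.8% of all targets below both. The median log2 difference was −0.92 against −0.17 for all targets. Only *KIT*, *MS4A2* and *IL13* had counts that reached 50.

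Several chemokines of steady-state skin and lymphoid traffic were lower in CPV. *CCL21*, made by lymphatic vessels to draw cells bearing CCR7, had 77.1 normalized counts in CPV (60.6 to 96.6), 639.0 in pyoderma case 1 and 532.6 in case 2. It was 8.29-fold (6.52 to 10.7) and 6.91-fold (5.42 to 8.92) higher in the pyoderma biopsies, which differed by 1.20-fold. *CCL19*, the other ligand of CCR7, had 411.0, 776.2 and 1069. CPV was lowest for both ligands, with limits apart under all 9 scalings, and the log2 ratio of *CCL21* to *CCL19* within a biopsy was −2.42 in CPV against −0.28 and −1.01.

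*CCL28*, an epithelial chemokine that binds CCR10, was also called lower, with 69.9 normalized counts in CPV, 184.9 in case 1 and 146.6 in case 2. *CXCL12*, a chemokine of stromal cells, had 1476, 1915 and 2916, again lowest in CPV under all 9 scalings. *CCL27*, a keratinocyte chemokine, had 15.4, 42.7 and 17.2 and was within background in CPV. *CCL25*, a chemokine of thymus and gut, was counted 7, 14 and 11 times, within background in CPV and case 2. The exception was *CX3CL1*, a membrane-bound chemokine of endothelial and epithelial cells, with 235.3 normalized counts in CPV, 163.6 in case 1 and 117.8 in case 2, highest in CPV under all 9 scalings. In all, CPV was below both pyoderma biopsies for 6 of 7 paired genes from a list of 26, beside 43.8% of all targets, and the median log2 difference was −0.78 against −0.17 for all targets.

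Monocyte-attracting chemokines had no common direction. Of the 6 that were paired 1 was called lower, beside 9.02% of the 122 targets with a count of at least 50. *CCL4*, a chemokine that attracts monocytes and T cells, had 137.7 normalized counts in CPV, 304.8 in pyoderma case 1 and 396.6 in case 2. *CCL3*, a related macrophage inflammatory protein, had 149.0, 175.8 and 110.2, with CPV between. *CCL2*, the main ligand of CCR2, had 3028 normalized counts in CPV, 3265 in case 1 and 2464 in case 2. *CCL8* also lay between the pyoderma biopsies. *CCL7*, another ligand of CCR2, was higher in CPV, with 269.2 against 102.6 and 201.2. It stood above both under 8 of 9 scalings. *CCL13*, a further chemokine of this family, had 18.5 normalized counts in CPV, 88.4 in case 1 and 27.8 in case 2. It was below both under all 9 scalings, but its limits overlapped those of case 2 and were apart from both under only 1 scaling.

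Macrophage and costimulation genes were higher in CPV, short of the 2-fold call. *CD163*, a scavenger receptor of tissue macrophages, had 1274 normalized counts in CPV (1204 to 1347), 553.7 in pyoderma case 1 and 681.0 in case 2. CPV was 2.30-fold (2.08 to 2.55) and 1.87-fold (1.70 to 2.05) above them, under all 9 scalings. *CD86*, a costimulatory ligand of antigen-presenting cells, had 1169 normalized counts in CPV, 626.8 in case 1 and 805.6 in case 2. *IL10*, which restrains these cells, had 125.4, 129.0 and 73.8, and CPV lay between. For *CD163* and *CD86* the distance of CPV from the nearer pyoderma biopsy was wider than that between the pyoderma biopsies, although after division by the keratin genes CPV lay between them for both. The median log2 difference of these 3 genes, of 21 listed, was 0.72.

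Antiviral and type I interferon genes were counted near background. *IFNB1*, interferon-β, was counted 32 times in CPV, 14 times in pyoderma case 1 and 24 times in case 2. The target of *IFNA7*, an interferon-α gene, was counted 33, 15 and 13 times. CPV was highest for both, but its limits overlapped those of at least 1 pyoderma biopsy for each gene. The *IFNA7* count of case 2 was within background. *IFNA5*, an interferon-α gene outside the list and named after its values were seen, was counted 9, 10 and 7 times. These counts were within background in all 3 biopsies, with CPV between. Interferon-α genes are near-identical copies, so a probe may count several of them. *IFNK* was within background in all 3 biopsies. Interferon-induced antiviral effectors such as *MX1* and *ISG15* were not paired with a target, and 3 of the 29 listed genes were.

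Few lymphocyte genes were paired. Of 5 from a list of 40, CPV was above both pyoderma biopsies for 1, between for 2 and below both for 2, beside 43.8% of all targets below both. The median log2 difference was −0.03. *MS4A1*, the B cell antigen CD20, had 74.0 normalized counts in CPV, 112.8 in pyoderma case 1 and 50.8 in case 2. *FOXP3*, a factor of regulatory T cells, was counted 22, 9 and 29 times. CPV lay between for both genes. *IL21*, a further cytokine of the list, was counted 22 times in CPV, 20 times in case 1 and 14 times in case 2. Limits of CPV overlapped those of both, and the case 2 count was within background. *CD38*, found on plasma cells and activated lymphocytes, had 118.2 in CPV, 144.3 in case 1 and 600.6 in case 2, so that pyoderma case 2 stood apart from the other biopsies. The same biopsy was highest for *CD40LG*, a ligand of helper T cells, with 66 counts against 13 in CPV and 17 in case 1. No defining gene of endothelial cells, the cells injured in vasculitis, and none of T cell receptors or of bacterial sensing was paired, so these were not analysed here.

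**Figure D4:**
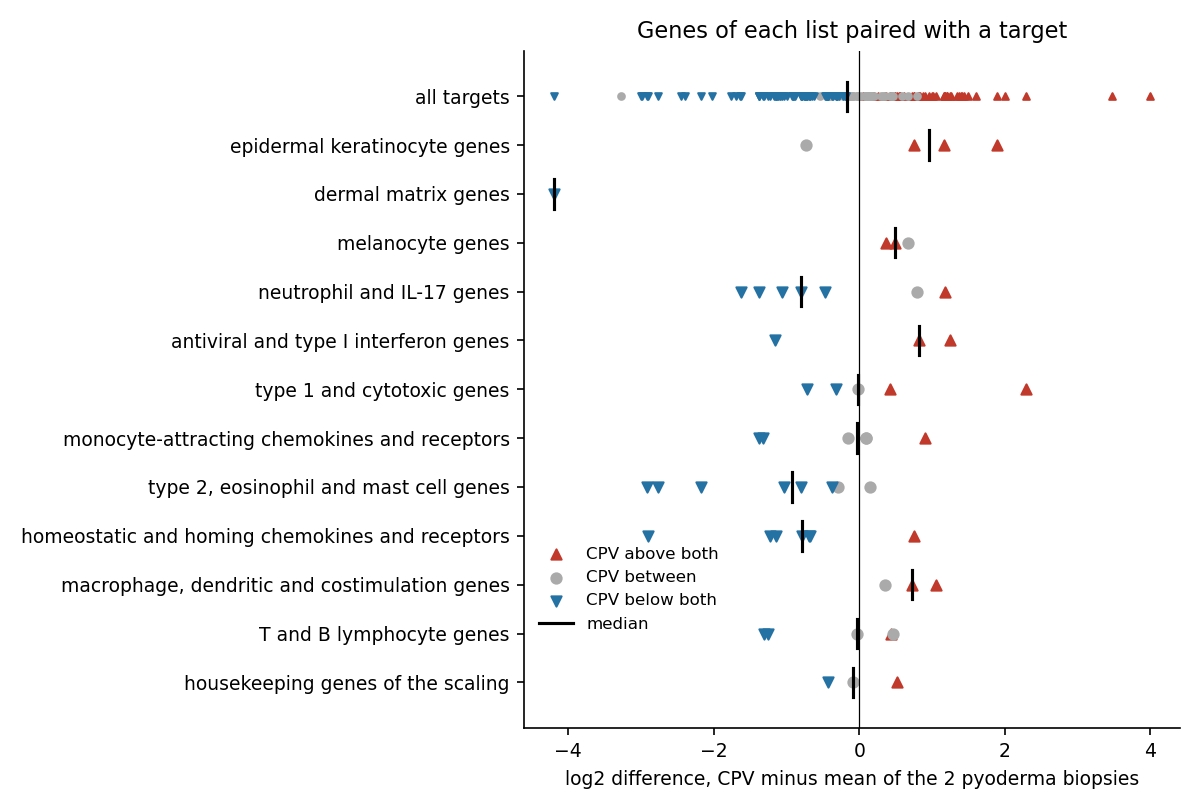
Log2 difference of normalized counts, CPV minus the mean of the 2 pyoderma biopsies, for each paired gene of 12 gene lists and for all 160 targets. Symbols show whether CPV lay above both, between or below both pyoderma biopsies, and black bars are medians, from −4.19 for the single dermal matrix gene to 0.96 for the epidermal genes against −0.17 for all targets.

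Of the 20 calls, 12 were targets without a symbol. XM_003639053.4 had the largest positive difference of the panel, with 12947 normalized counts in CPV, 2333 in pyoderma case 1 and 281.6 in case 2. CPV was 5.55-fold (5.31 to 5.81) above case 1 and 46.0-fold (41.0 to 51.8) above case 2. XM_005637400.1 ran the same way, at 1922, 599.4 and 48.9. For both, the pyoderma biopsies differed by more than CPV and case 1 did, by 8.28-fold and 12.3-fold.

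XM_537722.6, with 10240 normalized counts in CPV against 3742 and 1760, XM_859347.3, with 29364 against 12740 and 9148, and XM_538269.6, with 206.6 against 81.3 and 65.1, were farther from case 1 than the pyoderma biopsies were from each other. On the lower side, XM_005615400.3 had 23.6 normalized counts in CPV, 131.1 in case 1 and 127.4 in case 2, where the pyoderma biopsies differed by 1.03-fold. XM_542828.6 had 58.6, 948.9 and 233.7, and XM_005628934.3 had 46.2, 178.8 and 787.4. These last 2 were lowest in CPV but highest in different pyoderma dogs. XM_005638746.1 was 2.49-fold (2.05 to 3.03) higher in case 1 than in CPV and 4.23-fold (3.53 to 5.10) higher in case 2, and XM_548191.4, called higher, had 218.9, 107.7 and 76.6. The limits of XM_535733.5 and XM_848916.1, counted near background in CPV at 5.14 and 12.3 normalized counts, were apart under 3 and 2 scalings.

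The order of the pyoderma biopsies was also counted on each side. Where CPV was above both, pyoderma case 1 exceeded case 2 at 34 of 48 targets. Where it was below both, case 1 exceeded case 2 at 35 of 70, and over the whole panel it did so at 94 of 160. The order CPV, case 1, case 2 is that of the 3 keratin genes, and whether the shares differ was not tested.

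The housekeeping genes did not move together. *B2M* had 119190 normalized counts in CPV, 71362 in pyoderma case 1 and 97030 in case 2, while *RPL13A* had 8034, 11438 and 10175. The split of targets changed with the scaling. CPV was above both for 74 targets and below both for 39 when counts were scaled by the positive control probes, and for 26 and 105 when they were scaled by the panel total. The median log2 difference of the panel was −0.17 here and ran from −0.76 to 0.28 over the 9 scalings. Relative to that median, CPV differed by 2.46 for *IL12B*, 2.05 for *KRT14*, 1.35 for *CEACAM1*, −1.06 for *CCL28*, −1.16 for *CCL4*, −2.74 for *CCL21*, −2.75 for *MS4A2* and −4.03 for *COL1A1*. Under all 9 scalings 26 targets stayed above both pyoderma biopsies and 39 stayed below both.

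**Figure D5:**
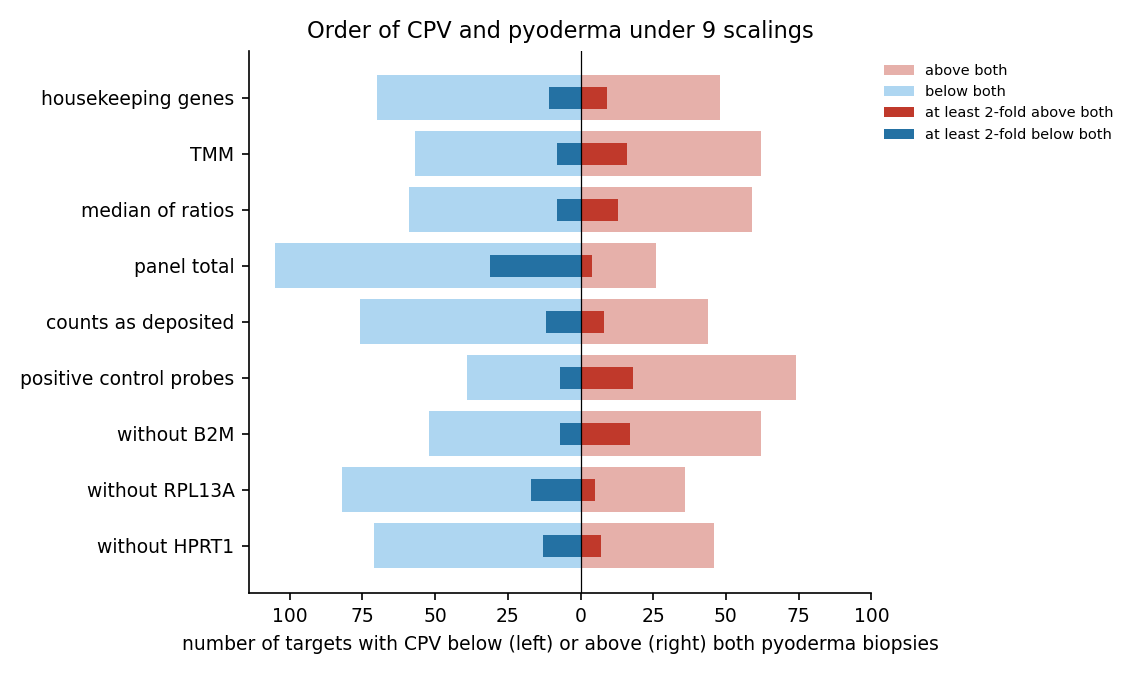
Number of targets with CPV above both pyoderma biopsies (right) and below both (left) under 9 scalings; wide pale bars count any distance and narrow dark bars at least 2-fold. The split runs from 74 above and 39 below with the positive control probes to 26 above and 105 below with the panel total.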

How the data were processed

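The authors extracted RNA from curls of archival blocks, ran a custom NanoString panel on a Sprint instrument and deposited a whole-number count per probe. Spiked positive controls ranged over 1.59-fold in the 3 biopsies. The panel held 160 targets, 6 positive and 8 negative control probes. Symbols came from a RefSeq gene table of UU_Cfam_GSD_1.0, used for names only, with versions ignored. The fourth housekeeping gene of the study, *CCZ1*, was not paired with a target.

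The scaling factor of a biopsy was its geometric mean of *HPRT1*, *B2M* and *RPL13A*, relative to the geometric mean over the 3 biopsies, and log2 values had a pseudocount of 1. Limits of counts are exact Poisson limits, and those of ratios are exact conditional binomial limits. The 9 scalings were this one, edgeR's TMM (edgeR 4.0.16), DESeq2's median of ratios (DESeq2 1.42.0, R 4.3.3), the positive control probes, the panel total, no scaling, and each pair of housekeeping genes. No group test was run. Scripts ran in Python 3.11.15 with scipy 1.17.1, pandas 2.3.3 and numpy 2.4.6, and plots were drawn with matplotlib 3.10.9. The comparison was also run on simulated Poisson counts with known depth and no spread between dogs. That run could not test the housekeeping scaling or the differences between dogs.

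Genes are named if they belong to a gene list, or are among the 10 targets with the largest positive or negative difference outside both pyoderma biopsies at a count of at least 50; other targets called at 2-fold are named too. The comparison and the lists were chosen with earlier results of these data known. Scaling by the keratin genes was added after seeing the data. The EM biopsy entered no value.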

Additional observations from a re-analysis of the deposited data

How the results depend on the processing

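Counts of targets followed the scaling. Targets called at 2-fold, 9 higher and 11 lower in CPV, numbered 16 and 8 with TMM, 13 and 8 with the median of ratios, 4 and 31 with the panel total, 18 and 7 with the positive control probes, 17 and 7 without *B2M*, 5 and 17 without *RPL13A*, and 2 and 43 with the keratin genes. Targets beyond the pyoderma gap, 16 and 23, numbered 6 and 45 with the panel total, 26 and 13 with the positive control probes, 29 and 17 without *B2M*, 10 and 31 without *RPL13A*, and 4 and 33 with the keratin genes. Targets with limits apart, 27 and 30, numbered 14 and 65 with the panel total, 39 and 14 with the positive control probes, and 4 and 78 with the keratin genes. Targets outside both, 48 and 70, numbered 62 and 57 with TMM, 59 and 59 with the median of ratios, 26 and 105 with the panel total, 74 and 39 with the positive control probes, 62 and 52 without *B2M*, 36 and 82 without *RPL13A*, and 8 and 119 with the keratin genes. These alternatives shift every target of a biopsy alike. Setting CPV against a single pyoderma biopsy raised the counts by construction: without pyoderma case 1 and without case 2, those at 2-fold were 23 and 15 higher and 26 and 22 lower, those with limits apart 46 and 38 higher and 48 and 54 lower, and those outside 73 and 65 higher and 87 and 95 lower.

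For 70 named genes and targets, 14 alternatives gave 980 log2 differences, of which 797 stayed within 1 SD (pyoderma biopsies) of the reported value and the others did not. That SD rests on 2 biopsies, so leaving out either of them stays within it by construction. It is also wide where the pyoderma biopsies differ: *IL6* stayed within it yet went from 0.80 to −0.50 without pyoderma case 1. Of the genes and targets called at 2-fold, *CEACAM1* changed sign, to −0.085 with the keratin genes, a scaling chosen after seeing the data. Uncalled genes changed sign too, among them *CD163*, from 1.05 to −0.21, and *CD86*, from 0.72 to −0.55, with the keratin genes. A scaling with *CCZ1* was not run, since it was not paired with a target. No paired analysis was possible because CPV has 1 biopsy. Depth limits genes near background, such as *IFNB1*, *CCL24* and *IL17A*.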

Other observations

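The panel also held receptors and enzymes of hormone and lipid signalling, which belong to none of the gene lists and are named after their values were seen. *PTGER4*, a prostaglandin E2 receptor, had 146.9 normalized counts in CPV, 275.3 in pyoderma case 1 and 384.1 in case 2, and its limits were apart from both under all 9 scalings. *HSD11B1*, which regenerates active glucocorticoid, had 189.1 normalized counts in CPV, 350.5 in case 1 and 287.4 in case 2. CPV was also lowest for *CYP1B1*, a cytochrome P450 enzyme, at 470.6 against 602.4 and 1043, and for *PPARG*, a lipid-sensing nuclear receptor, at 135.6 against 375.9 and 168.6. It stayed below both under 7 scalings for *CYP1B1* and under 8 for *PPARG*, whose limits in CPV overlapped those of case 2. *HIF1A*, a factor of the response to low oxygen, had 3151, 2881 and 2909 normalized counts, so that CPV was 1.09-fold above case 1 and 1.08-fold above case 2. CPV was above both under 7 scalings for *HIF1A* and below both under 2. None of these reached the 2-fold call.

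A pair of unnamed targets separated the pyoderma biopsies rather than CPV. NM_001002987.2 had 5304 normalized counts in pyoderma case 2 against 54.5 in CPV and 53.8 in case 1, and XM_845089.5 had 1489 in case 1 against 167.5 in CPV and 85.3 in case 2.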
